A study of Mus musculus with 12 samples.

Results

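*Clec9a*, which encodes the dead-cell receptor DNGR-1, and 9 genes close to it on chromosome 6 were followed in tumor cDC1s that had or lacked DNGR-1. They were *Clec1b*, *Gm43914*, *Clec1a* and *Clec7a* at and beside *Clec9a*, and *Klrb1b*, *Clec2i*, *BC064078*, *Clec2d* and *Cd69* farther upstream. The 10 were chosen by name among the 11264 genes in the expression table, with earlier results of these data known. All 10 passed the filter on low values, a mean of at least 1 CPM over the libraries, *Gm43914* through the WT libraries alone.

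RNA was sequenced from type I conventional dendritic cells (cDC1s) sorted from subcutaneous B16F10 tumors, a mouse melanoma cell line, at day 13. There were 4 groups of 3 libraries, with RNA of 2 to 3 mice aged 7 to 10 weeks pooled per library. The groups were *Clec9a* gfp/gfp mice given a plasmid encoding Flt3L, the growth factor of dendritic cells (FL), WT C57BL/6 mice given FL, *Clec9a* gfp/gfp mice given an empty plasmid (control), and WT mice given the empty plasmid. The plasmid was injected hydrodynamically 1 day before the tumor cells in every group, so the controls carried that injection too. *Clec9a* gfp/gfp mice have both copies of the gene disrupted by a green fluorescent protein knock-in, in every cell of the body, and had been backcrossed to C57BL/6. The sort kept CD103+CD24+ cells that were MHCII+ and CD45+ and lacked CD11b, F4/80 and Ly6C. The comparison of the genotypes asks what differs in cDC1s of mice without DNGR-1, and the comparison of the plasmids what FL changes. Near *Clec9a*, loss of DNGR-1, the inserted knock-in sequence and any donor DNA left beside it by the backcross cannot be told apart.

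Levels are CPM, counts per 1000000 of the scaled library size. The library sizes were 14.4 to 25.9 M, except 3.06 M in *Clec9a* gfp/gfp control 3. WT control 1 and 3 at one end of the first principal component, and *Clec9a* gfp/gfp FL 3 at the other, stood apart from the rest. All 15 cDC1 markers (*Xcr1*, *Irf8*, *Batf3* and others) had counts in every library, and their summed level was 19682 to 21940 CPM in *Clec9a* gfp/gfp FL, 20462 to 22853 in WT FL, 19465 to 23475 in *Clec9a* gfp/gfp control and 19534 to 23759 in WT control cDC1s.

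C-type lectins are proteins with a carbohydrate-recognition-like fold. Many of them are membrane proteins, and many of their genes lie together in the natural killer gene complex. One subgroup of that complex holds myeloid receptors such as DNGR-1, which binds F-actin exposed by dead cells, and Dectin-1, which binds β-glucans of fungi. Another holds Clec2 ligands and the NKR-P1 receptors that bind them, which natural killer cells use to sense healthy neighbors. In mouse, DNGR-1 is a marker of cDC1s and helps them to cross-present antigens of dead cells.

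By GENCODE annotation of GRCm38, *Clec9a* runs on the plus strand from 129408862 to 129424763 and its longest transcript has 7 exons. *Gm43914*, a sense intronic transcript of 594 bases, lies inside it, in the intron between exons 4 and 5 (129418179 to 129418772, plus strand). *Clec1b* runs on the plus strand from 129397297 to 129409335, and 1 of its 4 transcripts covers the 184 bases of the first exon of *Clec9a*. Reads there could be assigned to either gene. *Clec1a* lies on the minus strand at 129424772 to 129452000, with 8 bases between its end and that of *Clec9a*. *Clec7a* follows on the minus strand at 129461591 to 129472779, 36827 bases beyond *Clec9a*. The libraries were not stranded, so reads of antisense neighbors that overlap cannot be told apart by strand.

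The promoter windows of *Clec1b*, *Clec9a* and *Clec7a* are shown since *Clec9a* and *Clec7a* were called by genotype in opposite directions, and *Clec1b*, not called, lies next to them with libraries that did not overlap. They are the 250 bases before each gene's start in RefSeq (GRCm38.p6), at chr6:129397047-129397296 (plus strand), chr6:129408612-129408861 (plus) and chr6:129472780-129473029 (minus), read 5′ to 3′ on the gene's strand. Capitals mark matches to the TATA box letters TATAAA on either strand.
*Clec1b*: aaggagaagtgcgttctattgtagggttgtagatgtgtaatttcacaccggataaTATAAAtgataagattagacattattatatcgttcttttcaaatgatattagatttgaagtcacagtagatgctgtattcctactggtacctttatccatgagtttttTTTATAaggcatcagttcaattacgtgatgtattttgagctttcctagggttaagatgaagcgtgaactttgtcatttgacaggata
*Clec9a*: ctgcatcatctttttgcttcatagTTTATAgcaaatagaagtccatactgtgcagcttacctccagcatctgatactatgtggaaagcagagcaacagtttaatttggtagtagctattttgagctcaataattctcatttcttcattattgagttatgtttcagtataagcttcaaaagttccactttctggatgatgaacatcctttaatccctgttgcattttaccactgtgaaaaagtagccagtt
*Clec7a*: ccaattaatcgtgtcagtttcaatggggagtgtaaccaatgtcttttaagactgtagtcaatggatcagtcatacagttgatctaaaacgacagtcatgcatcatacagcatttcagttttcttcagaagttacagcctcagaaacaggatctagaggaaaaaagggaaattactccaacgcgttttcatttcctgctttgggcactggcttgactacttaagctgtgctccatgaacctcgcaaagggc
*Clec1b* held 2 matches, *Clec9a* 1 and *Clec7a* 0, and 12.37% of 32851 RefSeq promoter windows of this length held at least 1. The letters of AP-1 (TGANTCA), of the interferon-stimulated response element, of ETS factors (AGGAAGT) and of the E-box (CACGTG) were not in the 3 windows, and 6.749%, 2.977%, 7.686% and 6.021% of all windows held them on either strand. Of the 10 genes, 6 had an entry in this set and *Clec1a*, *Cd69*, *BC064078* and *Gm43914* did not.

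*Clec9a* itself was nearly silent in *Clec9a* gfp/gfp cDC1s. With FL it had 1.36, 0.269 and 0.789 CPM in *Clec9a* gfp/gfp cDC1s, against 328, 388 and 329 CPM in WT cDC1s. With the control plasmid it had 0.509, 1.31 and 10.9 CPM in *Clec9a* gfp/gfp cDC1s, against 371, 351 and 288 CPM in WT cDC1s. The 2 genotypes were far apart in every library, which checks the genotype labels. The *Clec9a* gfp/gfp libraries held 6 to 33 counts each, and the shallow *Clec9a* gfp/gfp control 3 held the 33. Over both plasmids *Clec9a* averaged 2.53 ± 4.14 CPM in *Clec9a* gfp/gfp and 342 ± 35.7 CPM in WT cDC1s (SD, n = 6 each), or 0.738% of the WT mean. Without *Clec9a* gfp/gfp control 3 the *Clec9a* gfp/gfp mean was 0.847 ± 0.482 CPM (n = 5), or 0.247% of the WT mean. On the log2 scale the difference was −7.12 (SE 0.36, adjusted p = 4.01e-09 by limma with Benjamini-Hochberg adjustment over 11255 genes), on the scale of log2(CPM + 1), which understates changes of low genes.

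*Gm43914*, the transcript annotated inside the fourth intron of *Clec9a*, had a count of 0 in all 6 *Clec9a* gfp/gfp libraries. In WT cDC1s it had 13.7, 17.5 and 8.98 CPM with FL and 10.5, 9.71 and 9.38 CPM with the control plasmid. All WT libraries thus held *Gm43914*, with 135 to 434 counts each, and no *Clec9a* gfp/gfp library did. Since it lies within an intron of *Clec9a* on the same strand, its reads cannot be told apart from those of unspliced *Clec9a* RNA. *Gm43914* may thus not be a separate result from *Clec9a*. Set against 3 counts over the 6 *Clec9a* gfp/gfp libraries, *Gm43914* was at least 439-fold lower in these than in the 6 WT libraries. *Gm43914* passed the filter on low values through its WT libraries alone, so its adjusted p by limma (1.06e-07) is no separate support. Within each plasmid it was at least 298-fold lower with FL and at least 141-fold lower with the control plasmid.

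*Clec7a*, the gene of the β-glucan receptor Dectin-1, moved the other way and was the largest increase by genotype among the genes tested. With FL it had 2390, 1800 and 2547 CPM in *Clec9a* gfp/gfp cDC1s, against 118, 190 and 84.6 CPM in WT cDC1s. With the control plasmid it had 1430, 1340 and 1970 CPM in *Clec9a* gfp/gfp cDC1s, against 54.5, 61.1 and 119 CPM in WT cDC1s. The lowest *Clec9a* gfp/gfp library was 7.04-fold above the highest WT library. Its means over both plasmids were 1913 ± 491 CPM in *Clec9a* gfp/gfp and 105 ± 50.1 CPM in WT cDC1s (SD, n = 6 each), a ratio of 18.3. In log2 terms it rose by 4.27 (SE 0.22, adjusted p = 4.01e-09 by limma), or 4.15 with FL (SE 0.30, adjusted p = 1.26e-06) and 4.38 with the control plasmid (SE 0.30, adjusted p = 1.10e-06). The interaction of genotype and FL was −0.23 (SE 0.43, adjusted p = 0.868). GENCODE gives *Clec7a* the biotype of a polymorphic pseudogene, although the C57BL/6 gene is known to make Dectin-1.

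**Figure D1:**
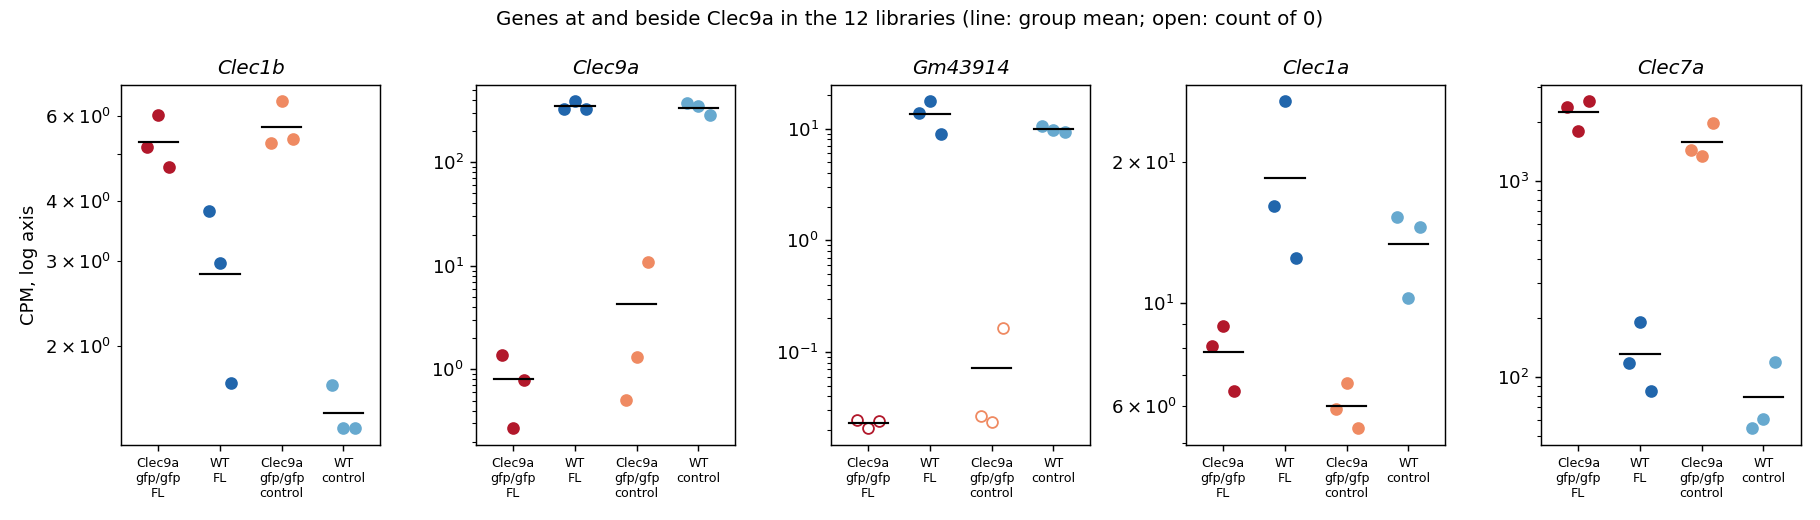
CPM (log axes with a different range in each panel) of the 5 genes at and beside *Clec9a* in the 12 libraries, 1 point per library, with a line at the group mean and open points for a count of 0, which sit at the constant the authors added. In each panel the 6 *Clec9a* gfp/gfp points lie on one side of the 6 WT points, for *Clec7a* at 1340 to 2547 CPM in *Clec9a* gfp/gfp against 54.5 to 190 CPM in WT libraries.

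These 3 genes were the only ones called by genotype at an adjusted p under 0.1 among all 11255 tested. Of the 10 genes followed, 3 were called over both plasmids, where 0.0267% of all genes were called, a share made up of these 3. *Clec9a* is the disrupted gene and *Gm43914* lies in its intron, so their calls mainly check the genotype. The same 3 were called with FL alone and with the control plasmid alone, again 0.0267% of all genes in each. All 3 stayed called in each of these comparisons when any one of the 12 libraries was left out. The plot of all genes shows these 3 outside the range of the other genes, whose log2 fold changes were −1.39 to 1.76.

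**Figure D2:**
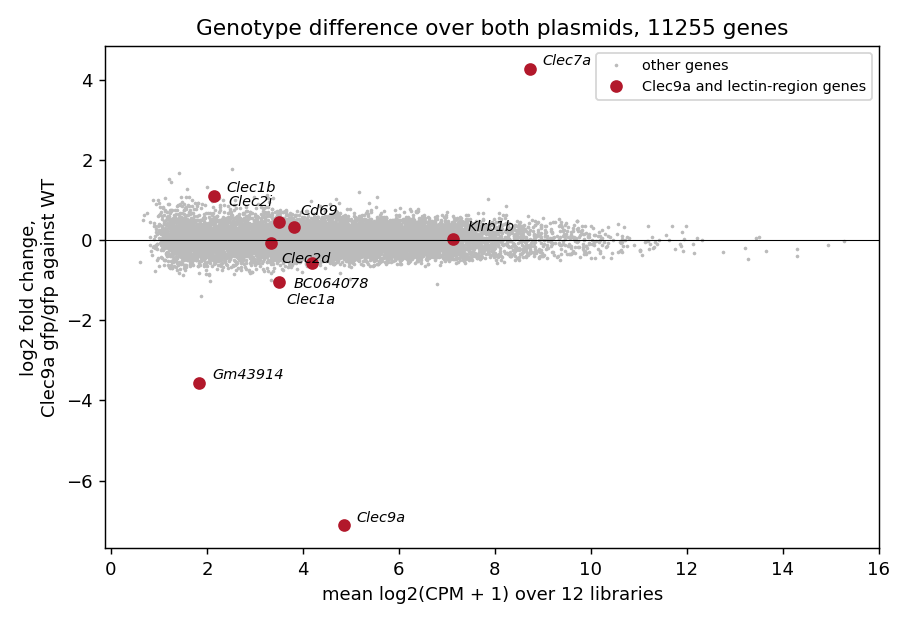
Each point is 1 of 11255 genes, with the mean log2(CPM + 1) over 12 libraries on the x axis and the log2 fold change of *Clec9a* gfp/gfp against WT over both plasmids on the y axis; red points are *Clec9a* and the lectin-region genes. *Clec7a* (4.27), *Gm43914* (−3.56, a value limited by the 1 added before the log) and *Clec9a* (−7.12) lie outside the cloud, and the others lie in it or at its edge.

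*Clec1b* and *Clec1a* flank *Clec9a* on either side. *Clec1b* encodes CLEC-2, the receptor for podoplanin known from platelets. With FL, *Clec1b* had 5.18, 6.03 and 4.71 CPM in *Clec9a* gfp/gfp cDC1s, against 3.81, 2.97 and 1.68 CPM in WT cDC1s. With the control plasmid it had 5.28, 6.44 and 5.39 CPM in *Clec9a* gfp/gfp cDC1s, against 1.66, 1.35 and 1.35 CPM in WT cDC1s. Every *Clec9a* gfp/gfp library was above every WT library, although counts were low, at 16 to 145 per *Clec9a* gfp/gfp library and 19 to 98 per WT library. The means over both plasmids were 5.50 ± 0.624 CPM in *Clec9a* gfp/gfp and 2.13 ± 1.02 CPM in WT cDC1s (SD, n = 6 each), a ratio of 2.58. The log2 fold change of 1.10 (SE 0.22) did not pass in limma (adjusted p = 0.279).

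*Clec1a* encodes a C-type lectin that binds melanin of fungal spores. With FL, *Clec1a* had 8.10, 8.93 and 6.48 CPM in *Clec9a* gfp/gfp cDC1s, against 16.1, 27.0 and 12.5 CPM in WT cDC1s. With the control plasmid it had 5.93, 6.72 and 5.39 CPM in *Clec9a* gfp/gfp cDC1s, against 15.3, 10.3 and 14.6 CPM in WT cDC1s. All 6 *Clec9a* gfp/gfp libraries were below all 6 WT libraries. In these unstranded libraries *Clec9a* reads past its annotated end, 8 bases from that of *Clec1a*, could be counted as *Clec1a*. Their share was not tested. Means over both plasmids were 6.92 ± 1.34 CPM in *Clec9a* gfp/gfp and 16.0 ± 5.82 CPM in WT cDC1s (SD, n = 6 each), or 43.4% of WT. The log2 fold change of −1.05 (SE 0.21) was not called either (adjusted p = 0.279 by limma). By unadjusted p, *Clec1a* and *Clec1b* ranked 4 and 5 among the 11255 genes, after the 3 that were called. Without WT control 2 both were called over both plasmids (adjusted p = 0.0665 for *Clec1a* and 0.0887 for *Clec1b* by limma), in a fit that called 4.32% of all genes. With the control plasmid alone, *Clec1a*, *Clec1b* and *Clec2d* were called without that library, as were 20.7% of all genes.

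Lack of overlap was thus shared by 5 genes in a row. Over both plasmids, the 6 *Clec9a* gfp/gfp libraries did not overlap the 6 WT libraries for 5 of the 10 genes followed, where 0.195% of all genes tested (22) showed this. The 17 others lay outside the 2 Mb on either side of *Clec9a*, and their ratios of means, *Clec9a* gfp/gfp over WT, were 0.384 to 2.46. The 5 genes span 75.5 kb around the knock-in, where loss of DNGR-1 and the altered locus cannot be told apart. Within one plasmid, where 3 libraries face 3, 8 of the 10 genes did not overlap with FL (9.89% of all genes) and 6 with the control plasmid (16.5%).

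Within 2 Mb on either side of *Clec9a* the table held 33 genes, of which 23 were not among the 10. None of these 23 was called by genotype (lowest adjusted p = 0.46 by limma), where 0.0267% of all genes were. In none did the libraries of the genotypes separate, where 0.195% of all genes did. Since the 10 were chosen with earlier results known, their split from these 23 does not test where the differences end. Their log2 fold changes were −1.02 to 0.48. The nearest measured gene upstream of *Clec1b* was *Clec12a*, an inhibitory myeloid lectin with its start at −66.2 kb from that of *Clec9a*. *Clec12a* had 362 to 426 CPM in *Clec9a* gfp/gfp and 292 to 471 CPM in WT libraries (log2 fold change 0.13, SE 0.12, adjusted p = 0.639). Downstream of *Clec7a*, the nearest was *Gabarapl1*, a gene of the autophagy machinery, with its start at 124 kb. *Gabarapl1* had 18.2 to 42.1 CPM in *Clec9a* gfp/gfp and 14.99 to 22.7 CPM in WT libraries (log2 fold change 0.48, SE 0.18, adjusted p = 0.46). The plot by distance shows the differences of the 5 genes between these neighbors.

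**Figure D3:**
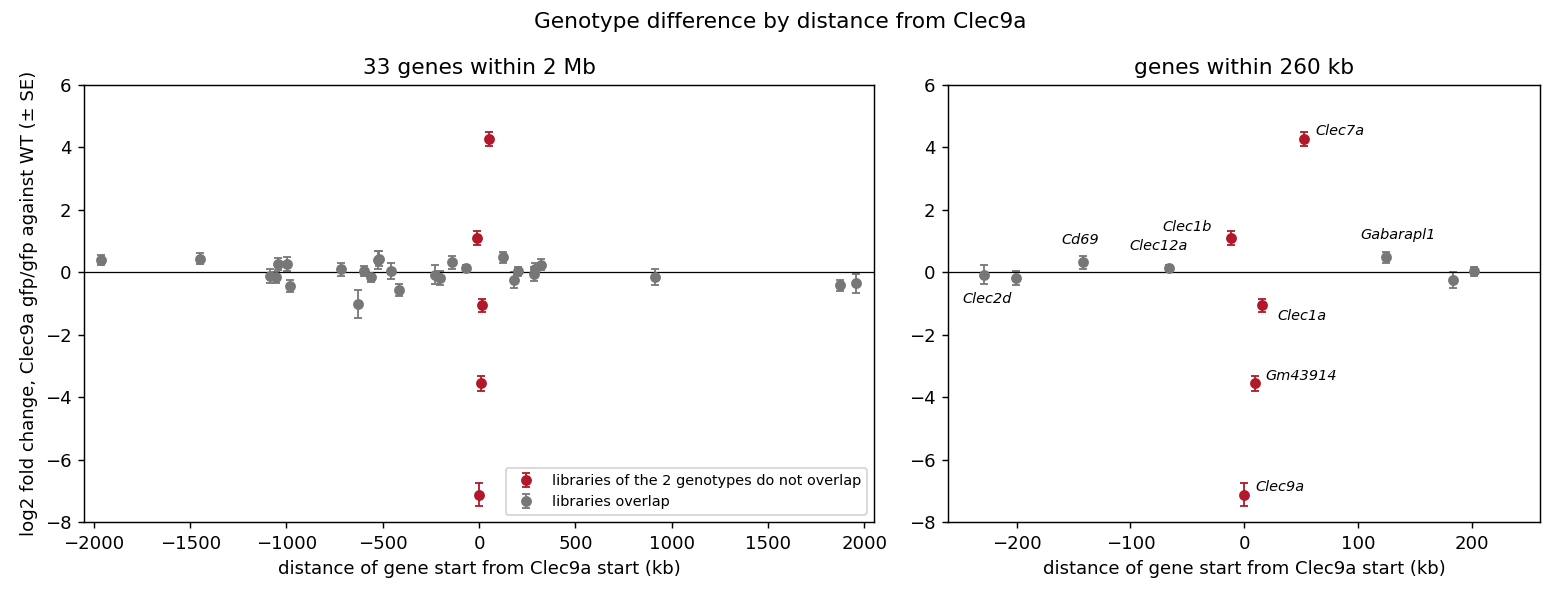
Log2 fold change of *Clec9a* gfp/gfp against WT over both plasmids (points, with SE bars) against the distance of each gene's start from that of *Clec9a* in kb, for 33 genes within 2 Mb (left) and those within 260 kb (right). Red points are the 5 genes whose libraries do not overlap, with starts from −11.6 to 52.7 kb; the 23 genes not among the 10 followed lie between −1.02 and 0.48.

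The other 5 genes start at −595.2 to −141.5 kb from *Clec9a* and none was called by genotype. *Klrb1b* encodes the inhibitory receptor NKR-P1B. *Klrb1b* had 111, 119 and 184 CPM in *Clec9a* gfp/gfp FL, 146, 133 and 96.6 in WT FL, 141, 142 and 156 in *Clec9a* gfp/gfp control and 148, 128 and 183 CPM in WT control cDC1s. The ranges of all 4 groups overlapped, and the genotypes differed by 0.035 on the log2 scale (SE 0.16, adjusted p = 0.943 by limma). *Klrb1b* overlaps *Gm44511* on the same strand, so their reads may be split.

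*Clec2d* encodes Clr-b, the ligand of NKR-P1B. With FL, *Clec2d* had 12.5, 11.99 and 19.1 CPM in *Clec9a* gfp/gfp cDC1s, against 11.6, 10.1 and 5.03 CPM in WT cDC1s. With the control plasmid it had 9.73, 3.21 and 4.73 CPM in *Clec9a* gfp/gfp cDC1s, against 18.7, 5.98 and 9.52 CPM in WT cDC1s. *Clec9a* gfp/gfp libraries were above the WT libraries with FL, and overlapped them with the control plasmid. The log2 fold change by genotype was 0.69 with FL (SE 0.42) and −0.83 with control (SE 0.42), and neither was called. Their difference, the interaction of genotype and FL, was 1.51 (SE 0.59) and did not pass adjustment (adjusted p = 0.489 by limma).

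*Clec2i* encodes Clr-g, another ligand of NKR-P1 receptors. *Clec2i* had 22.1, 10.5 and 21.4 CPM in *Clec9a* gfp/gfp FL and 11.5, 12.1 and 9.68 CPM in WT FL cDC1s. It had 6.30, 11.05 and 9.30 CPM in *Clec9a* gfp/gfp control and 3.99, 9.23 and 8.69 CPM in WT control cDC1s. The genotypes overlapped under both plasmids (log2 fold change 0.44, SE 0.24, adjusted p = 0.481 by limma). *BC035044* overlaps *Clec2i* on the opposite strand.

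*Cd69*, an early activation marker that holds lymphocytes in tissue, had 11.5, 13.4 and 15.9 CPM in *Clec9a* gfp/gfp FL and 9.57, 11.2 and 8.38 CPM in WT FL cDC1s. *Cd69* had 13.5, 21.7 and 13.2 CPM in *Clec9a* gfp/gfp control and 11.3, 11.5 and 19.6 CPM in WT control cDC1s. The genotypes were apart with FL and overlapped with the control plasmid, with a log2 fold change over both of 0.32 (SE 0.20, adjusted p = 0.523 by limma). *BC064078*, a transcribed pseudogene, had 13.6, 16.7 and 9.68 CPM in *Clec9a* gfp/gfp FL and 17.6, 18.3 and 17.99 CPM in WT FL cDC1s. It had 19.9, 15.2 and 10.6 CPM in *Clec9a* gfp/gfp control and 20.9, 22.2 and 32.6 CPM in WT control cDC1s. Within each plasmid *BC064078* was lower in every *Clec9a* gfp/gfp library than in every WT library. Its log2 fold change of −0.57 (SE 0.20) was not called (adjusted p = 0.46 by limma). The exact permutation test of each gene alone, two-sided and with genotype permuted within each plasmid, gave its smallest possible p, 0.005, for 6 of the 10 genes (*BC064078* and the 5 at and beside *Clec9a*), as it did for 0.72% of all genes, with no adjustment. For *Clec2i*, *Cd69*, *Klrb1b* and *Clec2d* this exact test gave p = 0.115 to 0.895.

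**Figure D4:**
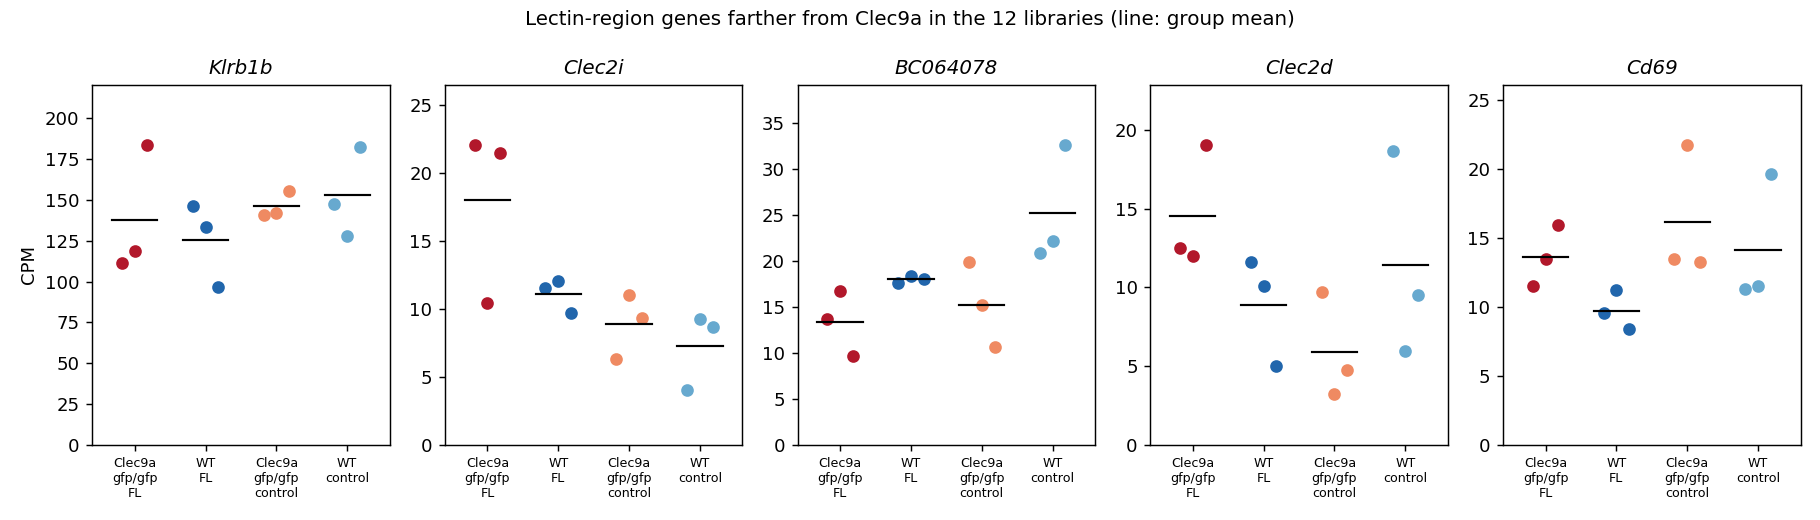
CPM (linear axes from 0) of *Klrb1b*, *Clec2i*, *BC064078*, *Clec2d* and *Cd69* in the 12 libraries, 1 point per library, with a line at the group mean. The groups overlap for *Klrb1b* (96.6 to 184 CPM), and *Clec2i* reaches its highest values, 22.1 and 21.4 CPM, in *Clec9a* gfp/gfp FL libraries.

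Over both genotypes 2 of the 10, the ligand gene *Clec2i* and *Clec7a*, were called higher with FL, where 9.6% of all genes were called higher and 17.5% in either direction. *Clec2i* averaged 14.5 ± 5.65 CPM with FL and 8.09 ± 2.52 CPM with the control plasmid (SD, n = 6 each), log2 fold change 0.76 (SE 0.24, adjusted p = 0.0595 by limma). For *Clec7a* the log2 fold change was 0.63 (SE 0.22, adjusted p = 0.0735 by limma). In *Clec9a* gfp/gfp cDC1s *Clec7a* averaged 2246 ± 394 CPM with FL and 1580 ± 341 CPM with the control plasmid, and in WT cDC1s 131 ± 54.1 and 78.3 ± 35.7 CPM (SD, n = 3 each). The FL and control libraries of each genotype overlapped for *Clec7a*. Both calls rested on single libraries. Left out 1 at a time, *Clec9a* gfp/gfp FL 1 or 3, WT FL 2, *Clec9a* gfp/gfp control 1 or WT control 1 ended both (adjusted p of up to 0.181 for *Clec7a* and 0.151 for *Clec2i*), and WT FL 1 or *Clec9a* gfp/gfp control 2 ended that of *Clec7a* (0.10 and 0.158).

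Within one genotype, FL against control called none of the 10 by limma. The shares of all genes called were 6.56% for WT and 5.46% for *Clec9a* gfp/gfp cDC1s, and both depended on single libraries. Left out 1 at a time, WT FL 2 or WT control 3 put the WT share at 0%, WT FL 3 at 0.32%, WT control 1 or *Clec9a* gfp/gfp FL 1 or 2 at 3.31% to 3.87%, and WT control 2 at 22.5%. The *Clec9a* gfp/gfp share was 0.942% without *Clec9a* gfp/gfp FL 3 and 1.52% to 2.25% without FL 1 or control 2 or 3 of that genotype. In WT cDC1s 1 of the 10 had an unadjusted p under 0.05, *Clec7a* (0.74, adjusted p = 0.173), where 21.9% of all genes had. *Clec2d* (1.26, adjusted p = 0.127) and *Clec2i* (0.90, adjusted p = 0.187) were the 2 such genes in *Clec9a* gfp/gfp cDC1s, where 16.5% of all genes had. Limma-voom called 0 in either genotype as well. *Clec9a* in WT cDC1s averaged 348 ± 34.5 CPM with FL and 336 ± 43.5 CPM with the control plasmid (SD, n = 3 each), log2 fold change 0.054 (SE 0.51, adjusted p = 0.961 by limma). These means differed by less than the SD between libraries. The SE and p come from the fit of all 4 groups, with *Clec9a* gfp/gfp libraries of 0.269 to 10.9 CPM. They do not measure the spread of WT pools alone. The interaction of genotype and FL was called for 0 of the 10 and for 0% of all genes by limma and for 0 by limma-voom, and 1 of the 10 (*Clec2d*) had an unadjusted p under 0.05, as had 9.12% of all genes.

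Set per kb of annotated exon, the order of the 10 genes differed between genotypes. In WT control cDC1s *Clec9a* was highest (102 ± 13.2 CPM per kb), ahead of *Klrb1b* (68.6 ± 12.4), *Clec7a* (29.7 ± 13.5) and *Gm43914* (16.6 ± 0.986), and these 4 did not overlap their neighbors in the order. *BC064078* and *Clec2d* (9.90 and 9.39 CPM per kb) overlapped each other, as did *Clec1a*, *Clec2i* and *Cd69* (2.58, 2.35 and 2.17), and *Clec1b* was lowest (0.285). In *Clec9a* gfp/gfp control cDC1s *Clec7a* was highest (599 ± 129 CPM per kb), followed by *Klrb1b* (65.6 ± 3.63). The next, from *BC064078* (5.98) down to *Clec1b* (1.12), each overlapped its neighbor. By this level, averaged over both plasmids, *Clec7a* ranked 48 among 11251 annotated genes in *Clec9a* gfp/gfp and 1291 in WT cDC1s, while *Clec9a* ranked 10087 and 511.

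With FL the order was alike at the top. In *Clec9a* gfp/gfp FL cDC1s *Clec7a* (851 ± 149 CPM per kb) and *Klrb1b* (61.9 ± 17.9) led. In WT FL cDC1s *Clec9a* (106 ± 10.5 CPM per kb) led, and *Klrb1b* (56.3 ± 11.6) and *Clec7a* (49.7 ± 20.5) overlapped. All values in this order are levels per length (SD, n = 3 each).

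Dectin-1 is known from macrophages, monocytes and other myeloid cells, so the markers of these cells stand beside *Clec7a*. Of 14 such markers 12 were in the table. Their summed level was 1368 to 1788 CPM in *Clec9a* gfp/gfp FL, 1159 to 1476 in WT FL, 957 to 1387 in *Clec9a* gfp/gfp control and 1216 to 1718 CPM in WT control libraries. None of the 12 was called by genotype, where 0.0267% of all genes were. Their median log2 fold change was −0.020, against 0.021 over all genes. Single markers went both ways, with log2 fold changes by genotype from −0.37 for *Apoe* to 0.40 for *Csf1r* and *Mrc1*. *Csf1r* averaged 19.7 CPM in *Clec9a* gfp/gfp FL, 16.3 in WT FL, 11.98 in *Clec9a* gfp/gfp control and 9.58 in WT control cDC1s. In the same order of groups, *C1qb* averaged 32.2, 27.6, 12.7 and 23.2 CPM. The sums of the genotypes overlapped, while the *Clec7a* levels of the genotypes did not. Most of each sum came from *Lyz2* and *Ccr2*, with group means of 369 to 732 and 545 to 629 CPM. *C1qa*, for one, had group means of 3.05 to 11.4 CPM, so the sum says little about such low markers. In these bulk samples, fewer cells of a type and less RNA per cell cannot be told apart. With FL, 5 of the 12 markers rose over both genotypes (*C1qa*, *C1qb*, *Ms4a7*, *Mrc1* and *Ly6c2*) and 0 fell, with a median of 0.70, where 9.6% of all genes rose. Within *Clec9a* gfp/gfp cDC1s 4 were called higher with FL (median 0.95), where 5.46% of all genes were called in either direction. Within WT cDC1s 0 were called (median 0.29), where 6.56% of all genes were. Among *Clec9a* gfp/gfp libraries, FL 3 had both the highest marker sum and the highest *Clec7a*, and control 1 and 2 the lowest of each. The WT libraries did not line up in this way. WT control 3 had the highest sum there (1718 CPM, *Clec7a* 119 CPM), and WT FL 2 the highest *Clec7a* (190 CPM, sum 1476 CPM). The part of these markers in the FL difference of *Clec7a* was not tested.

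**Figure D5:**
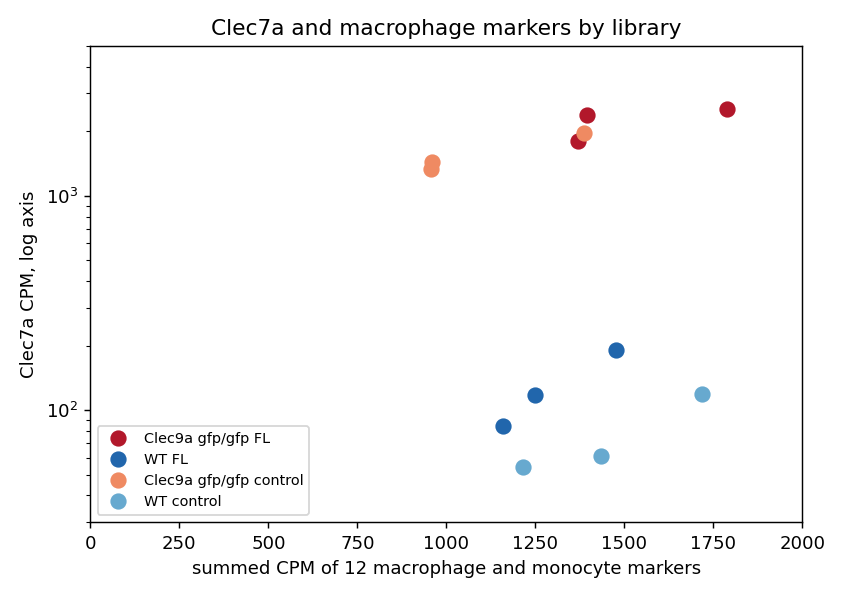
*Clec7a* (CPM, log axis) against the summed CPM of 12 macrophage and monocyte markers (linear axis), 1 point per library. The sums of the *Clec9a* gfp/gfp libraries (957 to 1788 CPM) overlap those of the WT libraries (1159 to 1718 CPM), and the *Clec7a* levels lie apart. Most of each sum comes from *Lyz2* and *Ccr2*.

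For *Clec1b*, 2 of 8 platelet markers were in the table, *Pf4* and *Itga2b*, with sums of 1.68 to 7.79 CPM in *Clec9a* gfp/gfp FL, 3.55 to 9.01 in WT FL, 1.63 to 4.29 in *Clec9a* gfp/gfp control and 2.63 to 6.76 CPM in WT control libraries. Neither was called by genotype, and *Pf4* had a count of 0 in 1 *Clec9a* gfp/gfp library. For *Klrb1b* and its ligands, 4 of 12 natural killer cell markers were in the table (*Gzmb*, *Klrd1*, *Klrk1* and *Il2rb*) and 0 were called by genotype. Their sums, nearly all from *Klrk1*, were 420 to 514 CPM in *Clec9a* gfp/gfp FL, 414 to 500 in WT FL, 363 to 465 in *Clec9a* gfp/gfp control and 354 to 486 CPM in WT control libraries. *Gzmb* had a count of 0 in 1 WT library and *Il2rb* in 2. The other marker lists gave no call by genotype: T cells (1 of 9 in the table), melanoma (6 of 7), cDC2s (6 of 7), plasmacytoid cells (4 of 6) and fibroblasts and endothelium (3 of 6). Their median log2 fold changes by genotype were 1.04 (*Cd4* alone), 0.029, −0.12, −0.13 and 0.74, against 0.29 for natural killer cell and −0.37 for platelet markers. Since 0.0267% of all genes were called by genotype, a short list without a call says little about the purity of the sorts. B cell and neutrophil markers were not in the table (0 of 6 each).

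No other C-type lectin measured was called by genotype, where 0.0267% of all genes were. Of 35 other lectin genes of the natural killer gene complex 6 were in the table, and of 39 myeloid lectins encoded elsewhere 15 were. Their median log2 fold changes by genotype were 0.063 for the 6 and 0.021 for the 15, against 0.021 over all genes. With FL over both genotypes *Klrd1*, the CD94 subunit of natural killer receptors, fell by 0.70 on the log2 scale (adjusted p = 0.0856 by limma), the only one of the 6 called, where 17.5% of all genes were. The natural killer cell markers *Gzmb* (0.96, adjusted p = 0.0254 by limma) and *Il2rb* (1.00, adjusted p = 0.057) rose instead, at group means of at most 3.01 CPM. Of the 15, 3 rose with FL, where 9.6% of all genes did. *Ly75*, the gene of the endocytic receptor DEC-205, rose by 1.32 on the log2 scale (adjusted p = 0.00335). Its level was 360 CPM in *Clec9a* gfp/gfp FL, 296 in WT FL, 147 in *Clec9a* gfp/gfp control and 112 CPM in WT control cDC1s, and it was called within each genotype as well. *Mrc1*, the mannose receptor (0.94, adjusted p = 0.0918), and *Cd93* (1.05, adjusted p = 0.0684) also rose. *Mgl2*, a galactose-binding lectin (−1.12, adjusted p = 0.0382), fell. In *Clec9a* gfp/gfp cDC1s alone, *Cd72* was called higher with FL (adjusted p = 0.0583).

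Of the 23 other genes within 2 Mb, 5 were called by FL over both genotypes, a share near the 17.5% of all genes. That share was 8.84% to 10.9% with 1 library left out, namely WT control 3 or FL 1, FL 3 or control 2 of *Clec9a* gfp/gfp. *Fkbp4*, a co-chaperone gene, fell by 1.07 on the log2 scale (adjusted p = 0.00734 by limma), and the lectin gene *Klrd1* fell as given above. *Gm44215* (0.67, adjusted p = 0.0613), *Gm8774* (0.84, adjusted p = 0.0738) and *2310001H17Rik* (0.60, adjusted p = 0.0921) rose.

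The genes whose level was most like that of *Clec9a* over the 12 libraries, by Pearson's r of log2(CPM + 1) among 8688 genes with a mean of at least 5 CPM, were *Lrr1* (0.82), *Tmem70* (0.79), *Prss57* (0.77), *Msra* (0.77) and *Wrap73* (0.77). These values describe 2 clusters of libraries, since *Clec9a* is at one level in each genotype. *Prss57* averaged 6.70 CPM in *Clec9a* gfp/gfp and 13.0 CPM in WT cDC1s, and its libraries did not overlap by genotype. Over the 6 WT libraries alone, the 5 most alike were *Rnf26* (0.98), *Dapk1* (0.96), *Ric8b* (0.96), *Ice1* (0.96) and *Galns* (0.96). They were picked as the highest of 8688, and none of the first 5 was among them.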

How the data were processed

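The authors demultiplexed reads with CASAVA 1.8.2, trimmed them with cutadapt 1.3, estimated counts per gene with RSEM 1.2.3 on GRCm38 (Ensembl 91) and scaled them by TMM in limma. The table they deposited holds a normalized signal (CPM), in which each value is a whole count plus 0.5, per 1000000 of the TMM-scaled library size. It is thus no count table. Counts given here were computed back from it and came out whole within 0.02 in all libraries. Genes with a mean of at least 1 CPM were fitted with limma 3.58.1 (R 4.3.3, trend) on log2(CPM + 1), all 12 libraries in 1 fit with a mean per group, adjusted by Benjamini-Hochberg over 11255 genes in each of 7 comparisons and called under 0.1. The fit was tested on simulated data. Single genes were also compared by two-sided exact permutation of libraries. Pools of mice are the replicates, so p-values measure the spread between pools, which limma takes over all 4 groups together. Sequences were taken from RefSeq, and positions from GENCODE M21. The genes followed and the lists were chosen with earlier results of these data known. Named besides the 10 genes were called lectins of both lists, called genes within 2 Mb, the nearest neighbor on each side, and the 5 genes most like *Clec9a* over all and over WT libraries. Alternatives were another pseudocount, filter, scaling or model, a replicate block, only the groups compared, and each library left out.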

Additional observations from a re-analysis of the deposited data

How the results depend on the processing

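The calls of *Clec9a*, *Gm43914* and *Clec7a* by genotype held under every alternative run: a pseudocount of 0.5, no filter, a mean of at least 5 CPM, column totals, the replicate block, only the groups compared, limma-voom (added after the data had been seen) and each library left out. The number of the 10 genes called moved in 5 comparisons. By FL in WT cDC1s it was 0, and 1 with column totals (*Clec7a*). By FL in *Clec9a* gfp/gfp cDC1s it was 0, and 1 with the replicate block or with only the groups compared (*Clec2d*), and 0 to 2 with 1 library left out (*Clec2d* and *Clec9a* without *Clec9a* gfp/gfp control 1, *Clec2d* without WT control 1 or 2, and *Clec2i* without *Clec9a* gfp/gfp FL 2). By FL over both genotypes it was 2, and 0 to 2 with 1 library left out. By genotype it was 3, and 3 to 6 (control plasmid) or 3 to 5 (both plasmids) with 1 library left out, the highest without WT control 2. For these moves the cause was not tested. Of 18 same-numbered pairs of libraries of different groups, 5 deviated together (r over 0.1; −0.22 to 0.34 in all), 3 of them between *Clec9a* gfp/gfp control and WT FL, groups not compared directly. The study describes separate experiments, and whether a replicate number marks one of them is not given in the sources used here, so the block may or may not join libraries of 1 experiment.

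Differences near 0 that were not called changed sign. *Klrb1b* with the control plasmid was −0.049 by genotype, and 0.045 with column totals, which put the median of all genes in that comparison at 0.14, against 0.054 otherwise. *Gm43914* was 0.15 by FL over both genotypes, and −0.31 with limma-voom. With 1 library left out, the genotype difference over both plasmids was −0.26 to 0.13 for *Clec2d* and −0.077 to 0.10 for *Klrb1b*, that of *Klrb1b* with FL was −0.11 to 0.25, and those with the control plasmid were −0.033 to 0.43 for *Cd69*, −0.041 to 0.49 for *Clec2i* and −0.17 to 0.087 for *Klrb1b*. The FL difference was −0.39 to 0.034 for *BC064078*, −0.32 to 0.017 for *Cd69* and −0.34 to 0.015 for *Klrb1b* in *Clec9a* gfp/gfp cDC1s, and −0.61 to 0.14 for *Clec2d* and −0.055 to 0.13 for *Clec9a* in WT cDC1s. The interaction was −0.30 to 0.23 for *Clec1a*, −0.58 to 0.076 for *Clec7a* and −0.056 to 0.30 for *Klrb1b*. The quasi-likelihood count test planned as an alternative was not run, and limma-voom on the counts computed back was run in its place. In *Clec9a* gfp/gfp control 3, at 3.06 M, 1 count is worth more than in the others, which limits low genes there.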
